A study of Homo sapiens with 6 samples.

Results

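The genes described here are the protein-coding ZNF genes that lie outside chromosome 19. They were chosen by symbol (ZNF followed by a number), by annotated gene type and location, and by a summed raw count of at least 60 over the 6 libraries. Of 18969 genes in the table, 527 had such a symbol, 468 of these were protein coding, 236 lay off chromosome 19 and 229 reached the count. The count was summed over both groups, so it did not use the difference between them, and all 229 genes also passed the filter on low counts. The 3 genes nearest above the limit were ZNF853 with 65 counts, ZNF410 with 68 and ZNF396 with 82. The 3 nearest below it were ZNF23 with 47 counts, ZNF732 with 46 and ZNF423 with 41, and they were not tested.

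The C2H2 zinc finger is a short fold held by a zinc ion, and an array of such fingers reads a stretch of DNA. Many human ZNF proteins join the array to a KRAB domain, which recruits the corepressor TRIM28 and, through it, the histone methyltransferase SETDB1 and HP1 proteins, and so silences transposable elements and nearby genes. KRAB genes arose by repeated duplication, so many sit in clusters, above all on chromosome 19. The ZNF name also covers unrelated proteins, among them promoter-binding activators, subunits of chromatin complexes, ribosome assembly factors and spindle proteins.

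Messenger RNA had been sequenced from HK-2, a line of human proximal tubule cells immortalised with papillomavirus genes. Every library came from cells given 20 µM cisplatin, a platinum drug that crosslinks DNA, and no library without the drug was analysed here. The 3 control libraries are labelled WT, and the other 3 are labelled Nfe2l1 overexpression; the vector and the number of clones are not stated there. NFE2L1 is a CNC-family transcription factor of the endoplasmic reticulum that raises proteasome genes, and the study asked how it bears on ferroptosis in tubule cells. The labels do not say that the libraries are separate cultures, so each p-value measures the spread among libraries that may be technical repeats.

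Depth ran from 16865460 to 23458333 counts. NFE2L1 itself stood at 234, 253 and 246 CPM (counts scaled to a common library size) in the controls and at 245, 744 and 339.5 CPM in the libraries labelled overexpression. The first of the latter lay within the control range, and the gene did not pass the test (adjusted p = 0.115, edgeR quasi-likelihood test with Benjamini-Hochberg adjustment, the test used throughout). Of 12 proximal tubule markers, 5 were in the table used here, and LRP2, CUBN, HNF4A, ANPEP, SLC22A6 and SLC22A8 were among those without a row in it. Levels are given in FPKM (fragments scaled by gene length and library size). PAX8 stood at means of 31.2 FPKM in controls and 35.8 FPKM in the other group. AQP1, GGT1, SLC34A1 and SLC5A2 had means of 0.0686, 0.356, 0.0342 and 0.102 FPKM over all libraries. Of 5 epithelial markers 4 were present, all but CDH1, at a summed 836 to 926 FPKM in controls and 1081 to 1377 FPKM in the other group. Of 7 fibroblast markers 5 were present, at a summed 15.0 to 18.3 FPKM against 5.66 to 7.29 FPKM. LUM made up most of that sum, at means of 15.6 and 5.30 FPKM, while COL1A1 stood at 1.36 and 1.35 FPKM and COL3A1, PDGFRB and DCN were near 0. None of 5 endothelial markers was in the table, and 2 of 6 immune markers were, at summed levels that overlapped. The part of these marker values in the ZNF results was not tested, and in bulk RNA fewer cells of a type and less RNA per cell cannot be told apart.

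The ZNF genes as a group were lower in the libraries labelled overexpression. They took 0.552%, 0.546% and 0.562% of all counts in the controls, against 0.403%, 0.367% and 0.439% in the other group. The groups did not overlap. At an adjusted p under 0.05, 46 of 229 fell and 6 rose, and 177 did not pass. The shares were 20.1% and 2.62%, beside a background of 9.49% of all 15046 genes tested that fell and 9.62% that rose. The median log2 fold change, taken as the libraries labelled overexpression over control, was -0.34, against 0.03 over all genes, and 154 of the 229 values were below 0.

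All 46 genes that fell and all 6 that rose had groups that did not overlap. Over the whole group 93 genes (40.6%) were lower in every library labelled overexpression than in every control, beside 20.9% of all genes. A further 26 (11.4%) were higher in every one, beside 21.8% of all genes. The authors' deposited table, whose test is not stated, called 64 of the 229 lower and 11 higher at an adjusted limit of 0.05. Of all 18969 genes it called 2074 lower and 1760 higher. The counts rest on which libraries enter. Without control library 1 no gene of the group passed edgeR's test in either direction (53 down and 11 up at an unadjusted p under 0.05), and the same held without control library 2 (63 down and 8 up). Of all genes, 1 of 15542 fell and 0 rose without control library 1, and 0 of 15568 passed without control library 2. Without control library 3, 19 ZNF genes fell and 1 rose, beside 4.49% of all genes that fell. Without overexpression library 3, 29 ZNF genes fell and 1 rose, beside 4.37% of all genes that fell. Without overexpression library 1, whose NFE2L1 level was that of controls, 37 fell and 5 rose, beside 8.57% of all genes that fell. Without overexpression library 2, 52 fell and 9 rose, beside 12.2% of all genes that fell. The median stayed between -0.40 and -0.29 over these 6 fits.

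**Figure D1:**
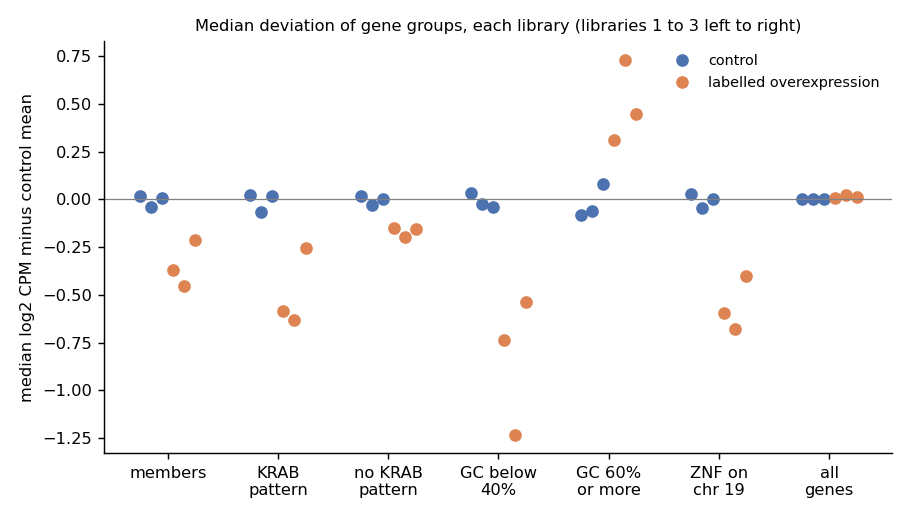
Median over each gene group of the log2 CPM in a library minus the control mean, with 1 point a library, control in blue and labelled overexpression in orange. The 3 libraries labelled overexpression lie at -0.37, -0.45 and -0.21 for the 229 ZNF genes and near 0 for all genes, and genes below 40% GC and genes of 60% GC or more move in opposite directions.

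Set against the control mean, the median over the 229 genes was 0.02, -0.04 and 0.01 in the control libraries and -0.37, -0.45 and -0.21 in the libraries labelled overexpression. The last of these, library 3, was nearest to the controls. The 222 ZNF genes on chromosome 19 were lower too, with a median log2 fold change of -0.53, and 54 of them fell and 10 rose. Whether the chromosome 19 genes and the others differ was not tested.

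The size and base composition of the transcripts went with the change. Gene length is the fixed length behind the FPKM values, and GC content is that of the longest annotated transcript. Across the 229 genes the Spearman correlation of the log2 fold change with GC content was 0.74, and with gene length -0.39. The genes share the same 6 libraries, so these values are descriptions. Over 12451 protein-coding genes the same correlations were 0.61 and -0.59.

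Below 40% GC, 23 of 53 ZNF genes fell and none of them rose, with a median log2 fold change of -0.82. All protein-coding genes in that range had a median of -0.55, and 30.3% of them fell. From 40% to 50% GC, 22 of 99 ZNF genes fell (22.2%), beside 13.7% of protein-coding genes. The medians there were -0.44 for ZNF genes and -0.23 for protein-coding genes. From 50% to 60% GC the ZNF median was 0.19 beside 0.26. At 60% GC or more, 4 of 27 rose and none fell, with a median of 0.55 beside 0.61 for protein-coding genes, and 27.3% of all genes in that range rose. Of the 46 genes that fell, 39 had under 45% GC, and all 6 that rose had over 49%.

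By length, the 18 genes under 2 kb had a median log2 fold change of 0.43, with 4 risen and 1 fallen, beside a median of 0.57 for protein-coding genes of that length, and 22.4% of all genes under 2 kb rose. Of all genes under 2 kb 1.30% fell. The 101 genes from 2 to 4 kb, the largest class, had a median of -0.09 beside 0.05, with 12 fallen (11.9%) and 2 risen. Of all genes of that length 7.18% fell and 5.71% rose. The 59 genes from 4 to 6 kb had a median of -0.67 beside -0.30 for protein-coding genes of that length. Of the 59, 18 fell (30.5%), beside 18.3% of all genes from 4 to 6 kb. The 51 genes over 6 kb had a median of -0.49 beside -0.47. Of the 51, 15 fell (29.4%), beside 20.7% of all genes over 6 kb.

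With a per-library offset for length and GC content in the edgeR fit, no ZNF gene passed in either direction, and 31 were lower and 8 higher at an unadjusted p under 0.05. In that fit 0.226% of all genes fell and 0.465% rose. The ZNF median was then -0.07 beside 0.02 for all genes. With an offset for length alone 20 fell, of which 18 were among the 46, and 4 rose, and 3.37% of all genes fell. The offset was not run with another tool. Without an offset DESeq2's Wald test called 63 fallen and 12 risen, beside 11.1% of all genes that fell.

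**Figure D2:**
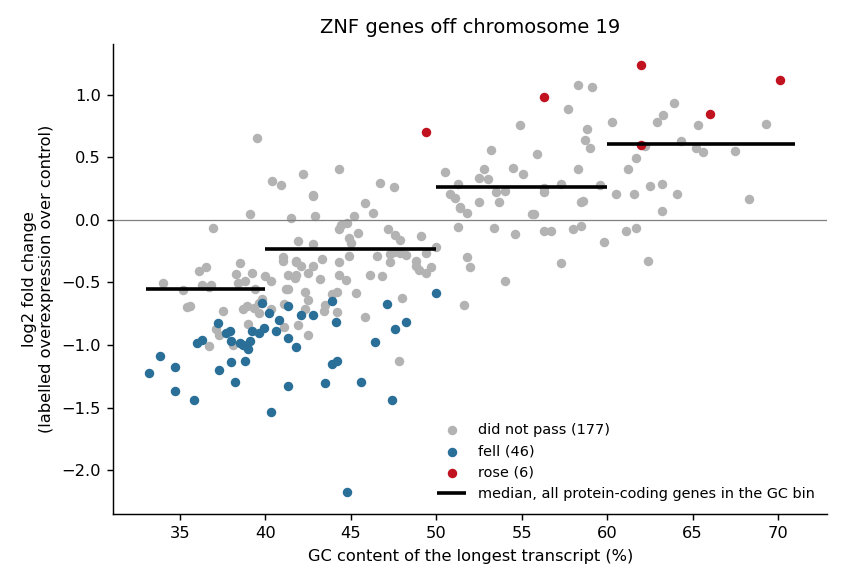
Log2 fold change (labelled overexpression over control) of each of the 229 ZNF genes against the GC content of its longest transcript in percent, coloured by call, with black bars for the median of all protein-coding genes in the same GC range. The 46 fallen genes lie mostly below 45% GC, and the ZNF medians run from -0.82 below 40% to 0.55 at 60% or more.

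The proteins fall into classes by domain. A KRAB pattern was found in the longest reading frame of 92 genes, of 228 with a frame. The one without is the readthrough gene ZNF670-ZNF695, which overlaps ZNF670 and ZNF695 on the same strand, so its counts are uncertain. The pattern misses some known KRAB genes, so the class without it is mixed. Of the 92 genes, 22 fell (23.9%) and 1 rose (1.09%), with a median log2 fold change of -0.46. Of the 136 without the pattern, 24 fell (17.6%) and 5 rose (3.68%), with a median of -0.15. These shares stand beside 9.49% of all genes that fell and 9.62% that rose. A difference between the classes was not tested. The KRAB class had a median GC content of 43.0% and the other 47.5%, and with length and GC content in the offset the class medians were -0.18 and -0.01. The per-library medians of the KRAB class were -0.58, -0.63 and -0.25, against -0.15, -0.19 and -0.15 for the class without the pattern.

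The finger count had a median of 9 and a maximum of 35. None of the 10 genes with no recognised C2H2 finger fell, and 1 rose (10.0%, beside 9.62% of all genes). With 1 to 6 fingers 11 of 61 fell, with 7 to 12 fingers 22 of 108, and with 13 or more 13 of 49. These counts stand beside 9.49% of all genes that fell. The median GC content of these classes, in the same order, was 48.2%, 44.5% and 42.8%. A difference between the finger classes was not tested. The Spearman correlation of finger count with the log2 fold change was -0.27 (228 genes), weaker than that of GC content.

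The largest physical group of fallen genes lay on chromosome 7. Clusters were defined as 3 or more of the genes with gaps of at most 500 kb. Between chr7:64307459 and 65401136 (GRCh38), 7 genes formed one such cluster, namely ZNF736, ZNF680, ZNF107, ZNF138, ZNF273, ZNF117 and ZNF92. In 5 of them the gene fell, beside 9.49% of all genes. All 7 were lower with no overlap between groups, beside 20.9% of all genes. Their median log2 fold change was -1.09 and their median GC content 35.4%, and with the length and GC offset the median was -0.63. The KRAB pattern was found in 6 of them, all but ZNF117. Such genes arose by duplication, and the sources do not say how reads that match several copies were counted, so the split of reads among them is uncertain.

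The promoters of ZNF92, ZNF138, ZNF107 and ZNF680 resemble each other closely, so 3 of them are printed. They are shown from 250 bases before to 50 bases after the RefSeq start (GRCh38.p14, plus strand, 5′ to 3′). In a global alignment the promoter of ZNF92 was 82.6% identical to that of ZNF138, 82.2% to that of ZNF107 and 81.3% to that of ZNF680. Those of ZNF273, ZNF117 and ZNF736 aligned less well, at 42.2%, 41.8% and 57.2% identity with ZNF92. The ZNF117 window (chr7:64990987-64991286) lies inside the minus-strand gene as deposited, which runs from 64971772 to 65006684. It is not at the upstream end of that gene, so it may not be the promoter of the transcripts counted. Capitals mark matches to TGACNNNGC, the antioxidant-type element bound by CNC factors with small MAF partners, searched on both strands. The match in ZNF92 and ZNF138, TGACTCAGC, starts 215 bases before the start in both and also holds the AP-1 letters TGACTCA. ZNF107 has no match in its window.
ZNF92, chr7:65373605-65373904: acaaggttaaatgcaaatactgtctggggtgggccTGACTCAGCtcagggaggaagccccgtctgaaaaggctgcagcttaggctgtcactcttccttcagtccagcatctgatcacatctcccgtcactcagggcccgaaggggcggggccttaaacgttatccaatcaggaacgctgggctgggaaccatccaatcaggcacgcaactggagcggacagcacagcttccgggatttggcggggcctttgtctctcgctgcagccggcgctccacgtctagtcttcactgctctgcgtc
ZNF138, chr7:64794178-64794477: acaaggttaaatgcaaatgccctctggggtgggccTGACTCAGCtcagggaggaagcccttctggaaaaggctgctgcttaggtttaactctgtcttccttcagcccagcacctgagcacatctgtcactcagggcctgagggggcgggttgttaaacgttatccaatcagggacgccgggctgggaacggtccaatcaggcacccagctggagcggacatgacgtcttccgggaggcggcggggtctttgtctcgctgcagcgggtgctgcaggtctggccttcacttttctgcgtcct
ZNF107, chr7:64665883-64666182: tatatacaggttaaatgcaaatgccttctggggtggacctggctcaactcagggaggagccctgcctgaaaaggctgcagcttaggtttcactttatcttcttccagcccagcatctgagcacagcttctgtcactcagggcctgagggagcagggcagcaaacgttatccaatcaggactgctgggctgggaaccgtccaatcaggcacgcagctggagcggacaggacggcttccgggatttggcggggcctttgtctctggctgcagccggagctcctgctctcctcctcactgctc

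ZNF92 (ENSG00000146757) stood at 41.0, 39.5 and 56.2 CPM in controls and at 14.0, 18.3 and 20.7 CPM in the libraries labelled overexpression. Its log2 fold change was -1.36 (SE 0.23, adjusted p = 0.0115). ZNF107 (ENSG00000196247) stood at 27.3, 26.5 and 24.0 CPM against 9.95, 7.44 and 11.3 CPM, a log2 fold change of -1.44 (SE 0.22, adjusted p = 0.0105). In both genes every control was above every other library. ZNF138, which shares the promoter match with ZNF92, stood at 16.2, 13.4 and 11.6 CPM against 9.83, 8.66 and 9.93 CPM. It did not pass (log2 fold change -0.54, adjusted p = 0.114), although its groups did not overlap either.

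ZNF680, with 25.5, 19.8 and 16.5 CPM against 9.95, 7.86 and 11.2 CPM, fell by 1.09 on the log2 scale (adjusted p = 0.0200). ZNF736 fell by 0.95 (adjusted p = 0.0206). ZNF117 was at a mean of 18.7 CPM in controls and at 7.97, 4.63 and 11.4 CPM in the other group (log2 fold change -1.22, adjusted p = 0.0289). ZNF117 overlaps ERV3-1, the envelope gene of an endogenous retrovirus, and reads of the 2 may not be separable. ZNF273 did not pass (log2 fold change -0.70, adjusted p = 0.0681).

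**Figure D3:**
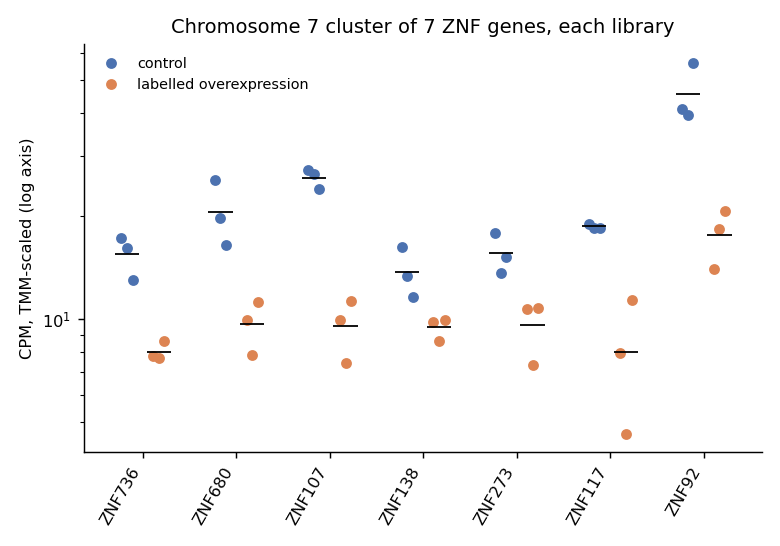
CPM (log axis) of the 7 genes of the chromosome 7 cluster in genome order, with 1 point a library, control in blue and labelled overexpression in orange, and bars at the group means. In all 7 genes the 3 libraries labelled overexpression lie below the 3 controls, by the most in ZNF107.

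A cluster of 4 genes at the tip of chromosome 4 (53286 to 499156) had a median of -0.85, and 2 of its genes fell, beside 9.49% of all genes. One of them, ZNF721, stood at 40.5, 45.3 and 41.8 CPM against 18.4, 14.8 and 22.3 CPM (log2 fold change -1.20, SE 0.20, adjusted p = 0.0116). It overlaps the pseudogene ABCA11P. Of the 4 genes on chromosome 5 from 178711512 to 179083977, ZNF354B and ZNF354C fell, and the median was -0.68.

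A cluster on chromosome 16 lay on the other side. Its 11 genes, from 30378106 to 31084196, had a median log2 fold change of 0.53 and a median GC content of 58.6%. None passed edgeR's test. Of the 11, 5 were higher in every library labelled overexpression than in every control, beside 21.8% of all genes. A cluster of 10 genes on chromosome 7 from 149069641 to 149867479 had a median of 0.11, and none passed.

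ZNF860 (chr3:31981750-31991723, plus strand) had the largest fall among genes with a mean of at least 1 FPKM in the higher group. It stood at 7.62, 6.75 and 7.29 CPM against 1.98, 2.90 and 2.58 CPM (log2 fold change -1.53, SE 0.26, adjusted p = 0.0116). The groups were well apart, but the gene overlaps OSBPL10. ZNF608 stood at 21.2, 22.8 and 11.9 CPM against 9.27, 4.40 and 6.98 CPM (log2 fold change -1.44, SE 0.34, adjusted p = 0.0233). Control library 3 lay low, and the gap to the nearest library of the other group was small. Its paralog ZNF609 did not pass (log2 fold change -0.68, adjusted p = 0.317). ZNF594 and ZNF280C fell by 1.33 and 1.30 on the log2 scale.

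Among other KRAB genes, ZNF12 stood at 44.9, 44.8 and 44.9 CPM against 21.5, 18.4 and 26.6 CPM, a log2 fold change of -1.02 (adjusted p = 0.0139). ZNF12, ZNF41, ZNF300, ZNF267 and ZNF184 were named after their values were seen. ZNF41 and ZNF300 fell by 1.15 and 1.13 on the log2 scale, and ZNF267 and ZNF184 by 0.97 and 0.80. ZNF445, which guards imprinted genes in mouse and human together with ZFP57, was also named after its values were seen. It fell by 0.68 on the log2 scale (adjusted p = 0.0335), from a range of 27.0 to 32.2 CPM to one of 17.6 to 20.6 CPM. With the length and GC offset none of these passed.

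**Figure D4:**
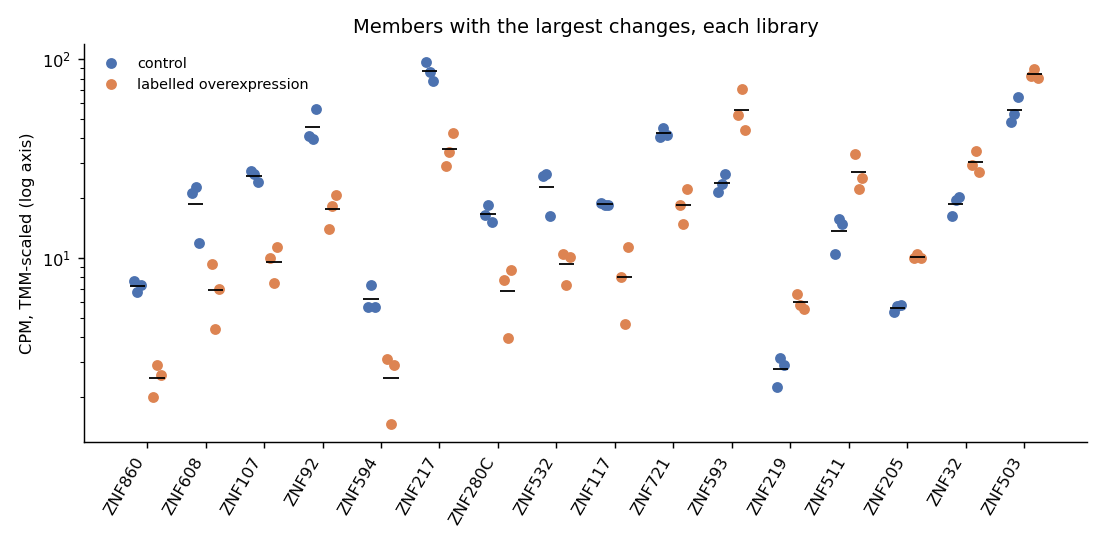
CPM (log axis) of the 10 largest falls and the 6 rises, with 1 point a library, control in blue and labelled overexpression in orange, and bars at the group means. The groups do not overlap in any of these genes, and the gap is small in ZNF608 and ZNF503.

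Of 15 genes for members of chromatin complexes 5 fell (33.3%, beside 9.49% of all genes), none rose and 10 did not pass, with a median log2 fold change of -0.68 and 14 values below 0. Their median length was 6.49 kb and their median GC content 43.5%. With the length and GC offset none passed edgeR's test (3 lower and 0 higher at an unadjusted p under 0.05), and the median was -0.29. ZNF217 (chr20:53567071-53609907, minus strand), a CtBP and CoREST partner that is amplified in breast cancer, stood at 96.9, 86.7 and 77.9 CPM against 28.9, 34.2 and 42.6 CPM. Its mean was 87.2 ± 9.51 CPM in controls and 35.2 ± 6.88 CPM in the other group (SD, n = 3 in each). By edgeR the log2 fold change was -1.31 (SE 0.19, adjusted p = 0.0105). With the offset the log2 fold change was -0.80 (adjusted p = 0.0737).

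ZNF532, which with ZNF592 and ZNF687 forms a module that binds ZMYND8, stood at 25.7, 26.3 and 16.3 CPM against 10.4, 7.30 and 10.1 CPM (log2 fold change -1.29, adjusted p = 0.0153). ZNF592 and ZNF687 did not pass, at -0.30 and 0.41. ZNF518A and ZNF518B, partners of the histone methyltransferase G9a, fell by 1.18 and 0.86. ZNF451, a SUMO ligase, fell by 0.90 (adjusted p = 0.0208), from 74.4, 69.0 and 67.7 CPM to 43.8, 27.4 and 41.7 CPM.

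Of 10 promoter-binding proteins, 2 fell and 1 rose (20.0% and 10.0%, beside 9.49% and 9.62% of all genes). ZNF24, a SCAN-domain factor, fell by 0.82 on the log2 scale (adjusted p = 0.0179), from 86.0, 90.9 and 98.1 CPM to 51.7, 43.2 and 60.6 CPM. ZNF143, which binds many promoters of housekeeping and small RNA genes, did not pass (log2 fold change -0.64, adjusted p = 0.0722). Its paralog ZNF76 was at 0.05.

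ZNF410 gave the lowest value of the whole group, from very few reads. It had 17, 18 and 22 raw counts in controls and 1, 5 and 5 in the libraries labelled overexpression (log2 fold change -2.18, SE 0.50, adjusted p = 0.0217). The gene overlaps FAM161B. In human cells ZNF410 is known as an activator with CHD4, the remodelling ATPase of the NuRD complex, as its main target. CHD4 stood at 26.0, 25.2 and 22.2 CPM in controls and at 76.2, 44.3 and 44.2 CPM in the other group, with no overlap. It rose by a log2 fold change of 1.16 (SE 0.24, adjusted p = 0.0174), and with the length and GC offset by 1.38 (adjusted p = 0.0396). A link between the 2 genes was not tested.

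The corepressor machinery that KRAB proteins use was counted from a list of 24 tested genes. Of these 3 fell and 1, CHD4, rose, with a median log2 fold change of -0.26. The shares of 12.5% and 4.17% stand beside 9.49% and 9.62% of all genes, and with the length and GC offset 0 fell by edgeR (3 at an unadjusted p under 0.05) and the median was -0.05. SMARCAD1, a remodeller, fell by 1.38 on the log2 scale (adjusted p = 0.0182). TASOR, of the HUSH silencing complex, fell by 0.98 (adjusted p = 0.0459), and RBBP4, a histone chaperone of NuRD, fell by 0.59 (adjusted p = 0.0275). TRIM28, the scaffold itself, stood at 383, 400.2 and 552 CPM against 508, 1021 and 631 CPM. The groups overlapped, and TRIM28 did not pass (log2 fold change 0.69, adjusted p = 0.0931). SETDB1 did not pass either (log2 fold change -0.29, adjusted p = 0.31).

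Of 11 genes for ribosome, RNA and spindle proteins 1 rose and 1 fell (9.09% each, near the 9.62% and 9.49% of all genes), with a median log2 fold change of 0.29. ZNF593 (chr1:26169908-26170873, plus strand), the human relative of a yeast factor for the large ribosomal subunit, was the largest rise of the whole group and had its highest mean level, 61.0 FPKM. It stood at 21.5, 23.5 and 26.3 CPM against 52.7, 70.7 and 44.3 CPM, or 23.8 ± 2.41 against 55.9 ± 13.5 CPM (SD, n = 3 in each group). By edgeR its log2 fold change was 1.23 (SE 0.21, adjusted p = 0.0123), and every library labelled overexpression was above every control. With the length and GC offset it was 0.33 (adjusted p = 0.278). The gene is short (0.638 kb) and rich in GC (62.0%), and it overlaps ZNF593OS on the other strand. The kit marks strand, but the sources used here do not give the strand setting of the counting.

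The ZNF593 promoter is shown because it alone among the risen genes holds TGACNNNGC. Its 2 matches, in capitals, start 117 and 10 bases before the RefSeq start, the first of them on the minus strand.
ZNF593, chr1:26169658-26169957: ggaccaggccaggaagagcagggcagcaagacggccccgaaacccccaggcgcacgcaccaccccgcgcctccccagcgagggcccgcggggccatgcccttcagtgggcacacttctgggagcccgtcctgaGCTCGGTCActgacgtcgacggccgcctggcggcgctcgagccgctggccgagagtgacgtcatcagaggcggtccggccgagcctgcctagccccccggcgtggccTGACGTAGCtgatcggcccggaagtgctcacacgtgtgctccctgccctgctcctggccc
A promoter was found for 193 of the 229 genes, and 26 of these (13.5%) held the element, beside 13.3% of all 35116 promoters. Among fallen genes 2 of 41 held it (4.88%), namely ZNF92 and ZNF860, and among genes that did not pass 23 of 146 (15.8%). Of the 6 risen genes ZNF593 alone did. A match is a run of letters and not a measured binding site.

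ZNF622, a factor for the export and maturation of the large ribosomal subunit, had 62.4, 78.9 and 78.4 CPM against 83.2, 148 and 91.0 CPM, at a mean of 52.2 FPKM. It did not pass (log2 fold change 0.55, adjusted p = 0.128). ZNF598, the ubiquitin ligase that marks collided ribosomes, stood at 0.54 (adjusted p = 0.0960). ZNF106, an RNA-binding protein, fell by 0.65 on the log2 scale (adjusted p = 0.0250). ZNF207, a partner of BUB3 at the kinetochore, did not pass, with a log2 fold change of -0.07. The next highest mean levels were those of ZNF664 (38.5 FPKM), ZNF706 (36.1 FPKM) and ZNF330 (30.7 FPKM), and none of these passed. The median of the 229 genes was 3.08 FPKM, and 188 had a mean of at least 1 FPKM.

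The other 5 rises were smaller. ZNF219 stood at 2.24, 3.11 and 2.89 CPM against 6.55, 5.80 and 5.53 CPM (log2 fold change 1.12, SE 0.26, adjusted p = 0.0220). ZNF205 stood at 5.34, 5.70 and 5.78 CPM against 9.95, 10.4 and 9.93 CPM (log2 fold change 0.85, adjusted p = 0.0269). Both groups were tight and apart. ZNF511 and ZNF32 rose by 0.99 and 0.70 on the log2 scale. ZNF503, a developmental repressor, rose by 0.60 (adjusted p = 0.0380), from 48.6, 53.2 and 64.7 CPM to 82.3, 89.1 and 80.4 CPM. Its paralog ZNF703 did not pass, at 0.57 (adjusted p = 0.212). ZNF219, ZNF511, ZNF205 and ZNF503 each overlap another gene, as do 18 of the 52 called genes.

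Among pairs of paralogs, 13 of 17 listed pairs had both genes in the group. In 10 of the 13 the gene with more GC had the higher log2 fold change. ZNF10 and ZNF140 stood at -0.71 and -0.11, with 38.7% and 45.4% GC. ZNF33A and ZNF33B, which are near copies, stood at -0.49 and -0.35, and their counts are uncertain for that reason. ZNF503 and ZNF703, ZNF512 and ZNF512B, and ZNF33A and ZNF33B were the 3 exceptions.

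Other zinc finger families were counted by symbol. Of 37 ZBTB genes, which join fingers to a BTB domain, 13 fell (35.1%, beside 9.49% of all genes) and none rose, with a median log2 fold change of -0.42. With the length and GC offset no ZBTB gene passed edgeR's test (5 lower and 2 higher at an unadjusted p under 0.05), and the median was -0.09. Of 15 ZFP genes 3 fell (20.0%), with a median of -0.66, or -0.23 with the offset. Of 15 ZSCAN genes 2 fell (13.3%), and of 6 ZKSCAN genes 2 fell (33.3%). Of 12 KLF genes, 2 rose (16.7%) and 1 fell (8.33%). A difference between these families and the ZNF genes was not tested.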

How the data were processed

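RNA from 6 HK-2 libraries was made into stranded mRNA libraries from 2 µg of RNA, as described in the labels' protocols. Trimming with Trimmomatic 0.36 and the GRCh38 build are named in the submitters' processing notes. The aligner, the counter and the annotation were not given in the sources used. The authors deposited raw counts per gene, whole numbers with totals of 16865460 to 23458333 that limit precision for genes of low count. The authors also deposited FPKM, whose ratio to the counts is fixed per gene, so a length per gene could be read from it. The authors' deposited log2 fold changes and p-values have no stated test and appear only beside a mention of their table.

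Counts were tested with edgeR 4.0.16 in R 4.3.3 (TMM, filterByExpr, glmQLFit and glmQLFTest on group alone, Benjamini-Hochberg adjustment over 15046 genes at 0.05). CPM are TMM-scaled, and each SE is the size of the log2 fold change over the square root of F. Fingers and KRAB patterns were searched in the longest reading frame, and GC content was read from the longest transcript, of GENCODE 29. Promoters are RefSeq windows. The offset came from smoothing the log2 deviation of every library on length and GC (mgcv 1.9.3). Alternatives used other filters, DESeq2 1.42.0, limma 3.58.1 on log2(FPKM + 1) and log2(FPKM + 0.1), a replicate block, the offsets and leaving out each library. The fit was tested on simulated counts. It recovered 1.49% of simulated 1.5-fold changes, 28.4% of 2-fold changes and 81.8% of 4-fold changes, with 9 false calls. A gene that did not pass may therefore have changed.

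Same-numbered libraries did not deviate together (correlations 0.00612, -0.512 and 0.0882 for numbers 1, 2 and 3), so the numbers were not taken to pair them. Between differently numbered libraries the correlations ran from -0.502 (control 3, overexpression 1) to 0.598 (control 2, overexpression 1). The source of these values was not tested. Named genes were members of role lists, paralog pairs and clusters, the 10 largest falls and all rises (adjusted p under 0.05, at least 1 FPKM, no overlap between groups), the 5 highest mean levels and those nearest the count limit. The genes and lists were chosen with earlier results of these data known. Coordinates are GRCh38 as deposited.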

Additional observations from a re-analysis of the deposited data

How the results depend on the processing

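The median log2 fold change of the ZNF genes was below 0 under every alternative run. A filter of at least 1 FPKM in at least 3 libraries left 189 of the 229 genes, or 194 with rescaled FPKM. The 46 falls and 6 rises depended on the setting. DESeq2's Wald test called 12 risen and 63 fallen, beside 11.1% of all genes that fell. Rescaling FPKM to a common sum shifted the median of all genes to -0.35. Then 98 of 194 ZNF genes fell and 1 rose, with a median of -0.57, beside 33.7% of all genes that fell. With limma on log2(FPKM + 0.1) 54 fell and 5 rose, beside 15.4% of all genes that fell, and the median was -0.50. With the offset for length 20 fell and the median was -0.10; with that for length and GC content 0 fell and 0 rose by edgeR (31 and 8 at an unadjusted p under 0.05), with a median of -0.074. With the replicate block, whose numbers do not pair the libraries, 0 fell and 0 rose by edgeR, and 0 of all genes passed; at an unadjusted p under 0.05, 65 were lower and 15 higher, and the median was -0.38. Leaving out each library gave 0 to 52 falls, 0 to 9 rises and medians from -0.40 to -0.29, beside 0% to 12.2% of all genes that fell. Other filters in edgeR, DESeq2 size factors and quantile normalization gave 44 to 47 falls and 6 to 8 rises, beside 7.07% to 12.2% of all genes that fell. With limma on log2(FPKM + 1) 57 fell and 5 rose, beside 16.3% of all genes that fell. The same limma fit without a filter gave 39 falls and 4 rises, beside 8.07% of all genes that fell.

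Depth limits genes with few reads such as ZNF410. Counting of reads shared among near copies or overlapping genes is not given in the sources used here.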

Other observations

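By chromosome, the 8 ZNF genes on chromosome 18 had the lowest median log2 fold change, -0.85, and 4 of them fell. The 27 genes on chromosome 16 had the highest, 0.28, with 2 fallen and 1 risen. On chromosomes 2, 8 and 22, with 6, 14 and 3 genes, none passed edgeR's test. These counts stand beside 9.49% of all genes that fell and 9.62% that rose. GC content was not compared between chromosomes, and a difference between chromosomes was not tested.

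ZNF423, a developmental factor just below the count limit, had 0 counts in all 3 controls and 10, 31 and 0 counts in the libraries labelled overexpression. It was not tested. ZNF207 has a long transcript of low GC content (36.9%), and its log2 fold change was -0.07, and 0.71 with the length and GC offset (adjusted p = 0.111).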
